A study of Mus musculus with 18 samples.

Results

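The ionotropic glutamate receptor subunits of the mouse retina are described here by 10 genes chosen by name: the AMPA receptor genes Gria1, Gria2, Gria3 and Gria4, the NMDA receptor genes Grin1, Grin2a and Grin2b, and the kainate receptor genes Grik1, Grik2 and Grik5. All 10 were found among the 55487 genes of the count table. Retinas were dissociated and flow sorted into CD11b-, DAPI- cells, called retina here, and CD11b+, DAPI- cells, called microglia. Each fraction had 5 libraries from Bmal1-mg/-mg mice, called knockout and labelled as lacking the clock gene Bmal1 in microglia, and 4 libraries from Bmal1f/f mice, called control, which carry the floxed allele without its deletion. The driver of the deletion, and the age and sex of the mice, are not given in the sources used here. The comparison asks whether the retinal cells and the microglia differ between these genotypes, and the subunits are followed over the 4 groups.

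Ionotropic glutamate receptors are tetrameric cation channels opened by glutamate. AMPA receptors carry fast synaptic currents, NMDA receptors need GluN1 from Grin1 together with a GluN2 subunit, and kainate receptors form from GluK1, GluK2 or GluK3, to which GluK5 from Grik5 must bind to reach the cell surface. In the retina, photoreceptors release glutamate onto bipolar and horizontal cells. OFF bipolar cells receive it through AMPA and kainate receptors, ON bipolar cells through the metabotropic receptor mGluR6, and amacrine and ganglion cells receive it from bipolar cells through AMPA and NMDA receptors.

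The libraries held 32277156 to 47563119 counts, and 3 reads stood for 0.0631 to 0.0929 CPM, the count scaled to library size. Knockout retina libraries had counts for 19235 ± 341 genes, against 17640 ± 1006 in control retina (mean ± SD, n = 5 and 4). The microglia libraries held 63036 to 69693 CPM of 13 microglia markers and the retina libraries 8.45 to 27.5 CPM, with Fcrls at 0 reads in all retina libraries. Arntl, the gene of BMAL1, had 83.5 to 132 CPM in knockout retina and 102 to 146 CPM in control retina, and 1.97 to 23.1 CPM in knockout microglia and 9.36 to 25.5 CPM in control microglia. The Arntl groups overlapped in both fractions, so its level checked the deletion in no library. The labels number the samples but do not say that each is a separate mouse, and the p-values therefore reflect sample-to-sample spread that may be technical.

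Grik1 was the most abundant subunit of the retina. Per kilobase of merged exons its level was 29.7 ± 7.08 CPM in knockout retina and 9.18 ± 5.16 CPM in control retina. In knockout retina the next levels per kilobase were 4.74 ± 0.708 CPM for Gria1, 3.36 ± 1.38 CPM for Grin1, 3.35 ± 1.81 CPM for Grik5, 2.41 ± 1.14 CPM for Gria4 and 1.45 ± 0.782 CPM for Gria2. In control retina Grik5 followed with 2.17 ± 1.34 CPM per kilobase, then Gria4 with 1.27 ± 0.794, Gria1 with 1.25 ± 1.29, Gria2 with 1.01 ± 0.371 and Grin1 with 0.963 ± 0.352. Below Grik1, each of these genes lay within 1 SD of its neighbour in the order in both genotypes, taking the larger SD of the pair. The means of Gria3, Grik2, Grin2a and Grin2b stayed below 0.4 CPM per kilobase in both genotypes. Single libraries reached 0.825 CPM per kilobase for Gria3 and 0.660 for Grik2. With the length of the longest coding transcript in place of merged exons Grik1 remained first, and Grin1 moved to 7.63 CPM per kilobase, second in knockout retina.

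The kainate genes supplied 72.6 ± 5.07% of the summed level per kilobase of all 10 genes in knockout retina and 70.3 ± 4.54% in control retina. The AMPA genes supplied 19.8 ± 4.80% in knockout retina and 23.2 ± 5.61% in control retina. The NMDA genes supplied 7.61 ± 2.995% in knockout retina and 6.53 ± 1.35% in control retina. Among these 10 genes the split between families thus differed by less than the spread between libraries, while the summed level per kilobase of the kainate genes was 33.2 ± 8.58 CPM in knockout retina and 11.4 ± 4.50 CPM in control retina. The split leaves out other subunit genes such as the NMDA gene Grin2d, with a mean of 26.1 CPM in control retina against 9.34 CPM for Grin1.

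**Figure D1:**
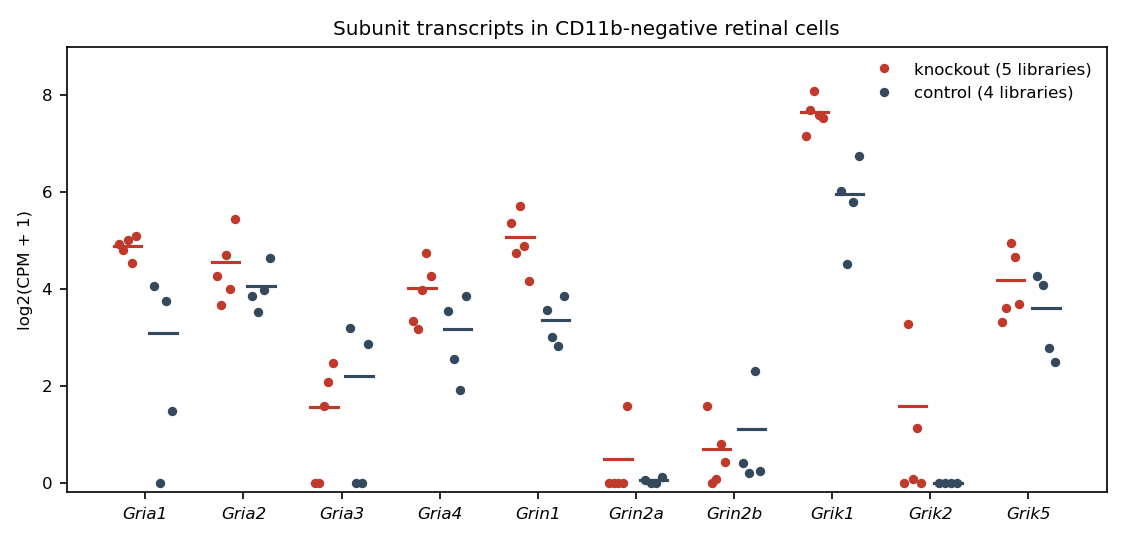
Level of each subunit in the 9 retina libraries, in CPM on a log2 scale of CPM plus 1, with knockout libraries left of control libraries, each point a library and each line the value of the mean CPM. For Gria1, Grin1 and Grik1 all 5 knockout points lie above all 4 control points, while the groups of the other 7 genes overlap.

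BMAL1 binds the E-box CACGTG, so promoters of 1 subunit of each family are printed with that motif and the GC box GGGCGG, the binding site of SP1, in capitals. They are RefSeq sequences on GRCm38.p6, from 250 bases before to 50 bases after the start, 5′ to 3′ on the minus strand, on which all 3 genes lie. Both strands were searched, and the motifs do not overlap one another. Grin1 at chr2:25319138-25319437, Gria2 at chr3:80802786-80803085 and Grik5 at chr7:25072320-25072619 read:
Grin1: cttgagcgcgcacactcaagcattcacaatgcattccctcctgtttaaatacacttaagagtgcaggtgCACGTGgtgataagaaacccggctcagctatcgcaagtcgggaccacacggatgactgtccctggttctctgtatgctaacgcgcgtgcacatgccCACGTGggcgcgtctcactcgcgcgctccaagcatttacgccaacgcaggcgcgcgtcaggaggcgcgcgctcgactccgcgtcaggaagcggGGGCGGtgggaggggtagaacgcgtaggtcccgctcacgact
Gria2: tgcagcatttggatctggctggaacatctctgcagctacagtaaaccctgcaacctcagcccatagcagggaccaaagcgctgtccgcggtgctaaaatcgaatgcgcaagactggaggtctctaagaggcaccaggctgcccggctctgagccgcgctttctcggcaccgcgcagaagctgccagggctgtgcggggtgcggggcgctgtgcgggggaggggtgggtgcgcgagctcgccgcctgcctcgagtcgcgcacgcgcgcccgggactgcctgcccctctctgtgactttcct
Grik5: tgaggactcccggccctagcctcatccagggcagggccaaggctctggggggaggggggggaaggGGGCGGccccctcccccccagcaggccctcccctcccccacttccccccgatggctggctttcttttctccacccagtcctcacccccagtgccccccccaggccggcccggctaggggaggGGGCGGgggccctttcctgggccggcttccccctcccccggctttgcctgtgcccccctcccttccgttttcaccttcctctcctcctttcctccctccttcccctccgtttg
The Grin1 window held the E-box at 2 places and the GC box at 1, the Grik5 window held the GC box at 2 places, and the Gria2 window held neither. Among 5 members with a promoter entry, which also include Gria4 and Grik2, 1 had the E-box and 2 the GC box. Of all 32851 promoters of this length 7.15% held the E-box and 35.7% the GC box. A match is a run of letters and shows no binding. The labels place the Bmal1 deletion in microglia, and a link between these motifs and the subunit levels was not tested.

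In the retina comparison of knockout with control, 8 of the 10 subunits had enough reads to be tested, and 0 passed an adjusted p of 0.05 in edgeR, where 1.66% of the 15332 genes tested did. DESeq2 called Grin1 and Grik1, limma voom called Grik1, and voom with quality weights, which called 1.41% of all genes, called 0 subunits. Of the 8, Grin1 and Grik1 had an unadjusted p under 0.05, against 14.2% of all genes. Gria1, Grin1 and Grik1 were higher in all 5 knockout libraries than in any control library, a separation that 5.62% of all tested genes showed in this direction. Of the 8 log2 changes 6 were positive, against 50.2% of all genes, with a median of 0.78 against 0.0028 over all genes. A gene passes the read filter through its higher group, so this median describes the tested subunits and not all 10. In these bulk libraries, more cells of a type and more RNA per cell cannot be told apart.

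Grik1 (ENSMUSG00000022935, chromosome 16, 87895900 to 88290265, minus strand, GRCm38) encodes GluK1, the kainate subunit known from OFF bipolar cells. It had 142, 205, 273, 191 and 185 CPM in knockout retina and 64.5, 21.9, 54.4 and 106 CPM in control retina. The lowest knockout library stood above the highest control library. The fold was 3.23 (95% interval 1.89 to 5.52), with a log2 change of 1.69 (SE 0.39; adjusted p = 0.0731 in edgeR). DESeq2 gave Grik1 an adjusted p of 0.000187 and limma voom one of 0.0369, in comparisons that called 7.72% and 2.37% of all genes, and the authors' deposited table, with 5.58% called, lists it at a log2 change of 1.68 and an adjusted p of 4.95e-05. When a library was left out the edgeR adjusted p ran from 0.0316, without control replicate 4, to 0.174.

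Grik5 (ENSMUSG00000003378, chromosome 7, 25009849 to 25072346, minus strand), the auxiliary-type kainate subunit GluK5, had 8.93, 11.2, 30.0, 24.4 and 11.9 CPM in knockout retina. Its control libraries had 18.3, 16.0, 5.90 and 4.63 CPM. The groups overlapped, and the log2 change was 0.63 (SE 0.55, edgeR adjusted p = 0.726). Grik2 (ENSMUSG00000056073, chromosome 10, 49094833 to 49788766, minus strand), which encodes GluK2, had 0 reads in all 4 control libraries and 0, 386, 2, 48 and 0 reads in knockout libraries. Over the group that is at least 125-fold higher, taking 3 reads over the control group as the floor, a bound for counting error only. However, 2 of the 5 libraries carried nearly all of the 436 reads and the gene was not tested. Within the kainate genes, Grik1 made up 89.9 ± 3.15% of the level per kilobase in knockout retina and 76.6 ± 19.2% in control retina.

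Grin1 (ENSMUSG00000026959, chromosome 2, 25291181 to 25319187, minus strand) encodes GluN1, the subunit that every NMDA receptor holds. It had 40.2, 25.6, 51.5, 28.7 and 17.1 CPM in knockout retina and 10.9, 7.003, 6.07 and 13.4 CPM in control retina. All 5 knockout libraries were above the 4 control libraries, with knockout replicate 5 nearest to them. The fold was 3.49 (95% interval 2.04 to 5.96), with a log2 change of 1.80 (SE 0.39; adjusted p = 0.0607 in edgeR). DESeq2 gave an adjusted p of 0.000219 and limma voom one of 0.0832, and the authors' deposited table lists Grin1 at a log2 change of 1.80 and an adjusted p of 0.00526. When a library was left out the edgeR adjusted p ran from 0.0371, without knockout replicate 5, to 0.146. Exons of Grin1 overlap the antisense gene Grin1os, which had 0 to 2 reads per library, and whether counting used strand is not given in the sources used here.

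Grin2a and Grin2b, which encode glutamate-binding partners of GluN1, had few reads, whereas Grin2d, which encodes the partner GluN2D, had 18.8 ± 2.37 CPM in knockout retina and 26.1 ± 7.04 CPM in control retina (edgeR adjusted p = 0.433). Grin2a (ENSMUSG00000059003, chromosome 16, 9567898 to 9995560, minus strand), which encodes GluN2A, had 1.99 CPM in knockout replicate 5, 0 in the other knockout libraries and at most 0.0894 CPM in control retina. Grin2b (ENSMUSG00000030209, chromosome 6, 135713233 to 136173511, minus strand), which encodes GluN2B, had 2.01, 0, 0.0528, 0.738 and 0.349 CPM in knockout retina and 0.334, 0.150, 3.97 and 0.179 CPM in control retina. Only Grin2b was tested, at a log2 change of -0.88 (SE 1.49; adjusted p = 0.89 in edgeR), which turned positive, to 1.51, without control replicate 3. Grin1 therefore supplied 98.1 ± 2.75% of the level per kilobase of the 3 NMDA genes in knockout retina and 94.1 ± 9.67% in control retina.

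Among the AMPA genes, Gria1 was the one whose genotypes did not overlap. Gria1 (ENSMUSG00000020524, chromosome 11, 57011387 to 57330244, plus strand), which encodes GluA1, had 29.5, 27.1, 31.1, 22.1 and 33.3 CPM in knockout retina and 15.8, 0, 12.5 and 1.81 CPM in control retina. The knockout libraries lay close together and the control libraries were spread from 0 upwards. Its log2 change of 1.93 (fold 3.797, 95% interval 0.807 to 17.9, SE 1.14) did not pass, at an edgeR adjusted p of 0.535. It was 2.60 without control replicate 1 and ran from 1.52 to 2.60 when a library was left out, with edgeR adjusted p-values from 0.287 to 0.693.

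Gria2 (ENSMUSG00000033981, chromosome 3, 80681450 to 80802835, minus strand) encodes GluA2, whose edited form keeps calcium out of the channel. It had 18.2, 11.7, 25.1, 15.1 and 42.3 CPM in knockout retina and 13.5, 10.5, 14.9 and 23.9 CPM in control retina. The groups overlapped, at a log2 change of 0.52 (SE 0.42; adjusted p = 0.694 in edgeR). Gria4 (ENSMUSG00000025892, chromosome 9, 4417896 to 4796234, minus strand), which encodes GluA4, had 9.15, 8.08, 14.8, 25.7 and 18.2 CPM in knockout retina and 10.7, 4.88, 2.80 and 13.6 CPM in control retina. Its log2 change was 0.93 (SE 0.56, edgeR adjusted p = 0.54), with 3 of 5 knockout libraries above all controls. Gria3 (ENSMUSG00000001986, X chromosome, 41400854 to 41678601, plus strand), which encodes GluA3, had 0, 0, 2.01, 3.25 and 4.59 CPM in knockout retina and 8.13, 0, 0 and 6.30 CPM in control retina. Libraries at 0 occurred in both genotypes, and the log2 change was -0.87 (SE 2.12, edgeR adjusted p = 0.928), or -1.46 to -0.076 when a library was left out.

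Of the summed AMPA level per kilobase, Gria1 held 55.4 ± 11.8% in knockout retina and 27.4 ± 28.8% in control retina. Gria2 held 15.7 ± 5.14% in knockout retina and 30.4 ± 13.3% in control retina. Gria4 held 26.9 ± 10.6% in knockout retina and 35.3 ± 18.4% in control retina, and Gria3 1.97 ± 1.92% and 6.89 ± 7.95%, in the same order. The control SD of the Gria1 share exceeded its mean, since 1 control library had no Gria1 read, and these shares were not tested.

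**Figure D2:**
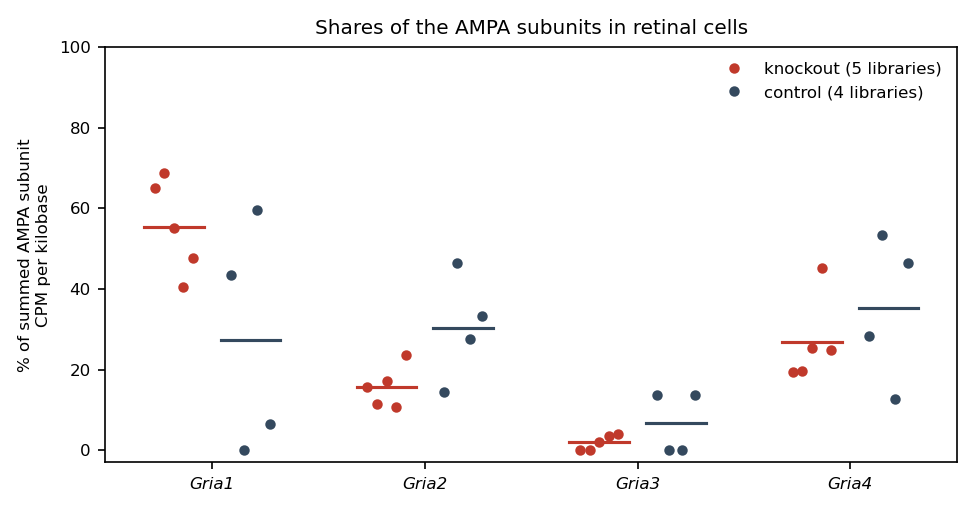
Share of each AMPA subunit gene in the summed AMPA level per kilobase, in percent, for the 5 knockout and 4 control retina libraries, each point a library and each line the mean. Gria1 ranges from 40.5 to 68.9% in knockout libraries and from 0 to 59.7% in control libraries.

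**Figure D3:**
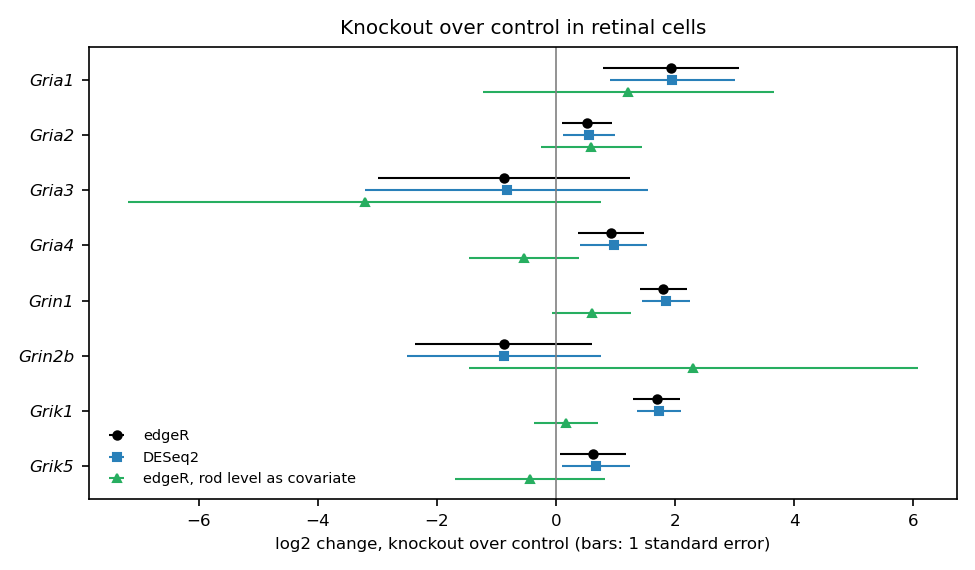
Log2 change of the tested subunits in knockout over control retina, from edgeR, from DESeq2 and from edgeR with the rod level as a covariate, with bars of 1 standard error. Without the covariate edgeR has Grin1 at 1.80 and Grik1 at 1.69, and with it Grin1 at 0.60 and Grik1 at 0.16. The covariate was the mean log2 level of the 12 rod markers. All 12 were lower in knockout retina at an unadjusted edgeR p under 0.05, so the fit with the covariate cannot separate rod level from genotype.

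Markers of retinal cell types moved in the same libraries. The summed level of 10 bipolar markers was 1605 to 3029 CPM in knockout retina and 311 to 858 CPM in control retina, with 6 of the 10 called higher by edgeR, against 1.34% of all genes, none lower, and none of the 10 at 0 in a group. The 12 rod markers summed to 129136 to 163969 CPM in knockout retina and 168915 to 244978 CPM in control retina, with 5 called lower, against 0.326% of all genes, and none at 0 in a group. The 9 amacrine markers summed to 244 to 394 CPM in knockout retina and 80.4 to 210.2 CPM in control retina, with 1 called higher, Chat at 0 in knockout and Th at 0 in control retina. The 8 cone markers summed to 2833 to 6566 CPM in knockout retina and 835 to 1949 CPM in control retina, with 4 called higher, and the 8 ganglion cell markers to 12.9 to 23.6 CPM and 5.84 to 29.7 CPM, in the same order, with 0 called, and Pou4f2 at 0 in knockout retina. The 8 Müller glia markers summed to 2577 to 4568 CPM in knockout retina and 1292 to 3159 CPM in control retina, with 0 called and 4 at an unadjusted p under 0.05, against 14.2% of all genes. The 5 horizontal cell markers summed to 98.1 to 174 CPM in knockout retina and 54.1 to 94.4 CPM in control retina, almost all of it Sept4, with 0 called and Onecut1 and Lhx1 at 0 in control retina. The 5 endothelial markers summed to 217 to 435 CPM in knockout retina and 74.0 to 229.8 CPM in control retina, with 1 called higher, Tie1, which was at 0 in control retina. The 7 monocyte and border macrophage markers summed to 17.1 to 19.99 CPM in knockout retina and 0.239 to 5.41 CPM in control retina, nearly all of it Lyve1, with 0 called and F13a1, Cd163 and Pf4 at 0 in both. The part of these cell types in the subunit levels was not tested.

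Set against the summed bipolar markers, Grik1 had a level of 8.76 ± 2.28% of that sum in knockout retina and 9.18 ± 3.14% in control retina, so that the genotypes differed by less than the spread between libraries. The same held against the summed cone markers, where Grik1 had 4.55 ± 1.54% in knockout retina and 4.24 ± 2.11% in control retina. A ratio alike in both genotypes was thus not particular to the bipolar markers. The bipolar list also holds Grm6 of ON bipolar cells, so its sum does not single out the OFF bipolar cells named for Grik1. Grin1 had 1.36 ± 0.327% of the bipolar sum in knockout retina and 1.55 ± 0.574% in control retina. Of the amacrine sum, Grin1 had 11.1 ± 4.40% in knockout retina and 6.54 ± 2.60% in control retina, and these ranges overlapped. Against the summed ganglion cell markers, Grin1 was at 132 to 251% in knockout retina and 28.8 to 120% in control retina, and these ranges did not overlap. With the rod level as a covariate the log2 changes were 0.16 for Grik1, 0.60 for Grin1 and 1.21 for Gria1, each at an edgeR adjusted p of 1, and 0 genes were called in all. The sign turned for Gria4 (-0.54), Grik5 (-0.43) and Grin2b (2.30). With the count of detected genes as a covariate they were 0.57 for Grik1, 1.29 for Grin1 and 1.38 for Gria1, and the sign turned for Gria4 (-0.37) and Grin2b (2.08). The rod covariate was the mean log2 level of the 12 rod markers, all 12 of them lower in knockout retina at an unadjusted edgeR p under 0.05. The count of detected genes did not overlap between the genotypes in retina. With 9 libraries these fits therefore cannot separate either covariate from the genotype, and no conclusion is drawn from them.

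**Figure D4:**
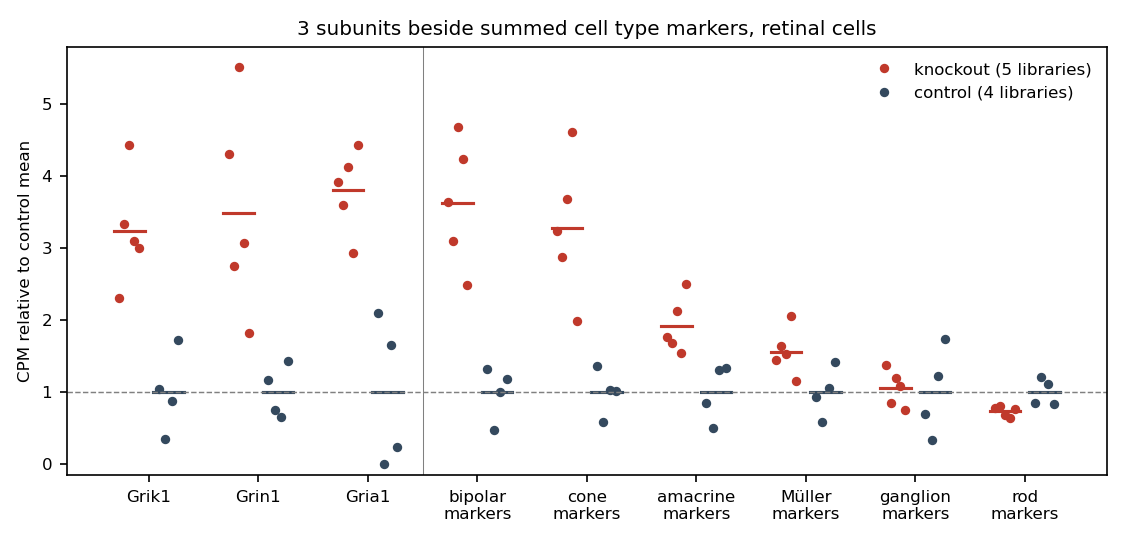
Level of Grik1, Grin1 and Gria1 and summed level of the marker lists in each retina library, divided by the control mean, with each point a library and each line the group mean. In knockout retina Grik1 averages 3.23 times and the bipolar markers 3.63 times the control mean, the amacrine markers 1.92 times and the rod markers 0.734 times.

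In microglia Grik1 had the highest mean level per kilobase, and each subunit other than Grik1 and Grin1 was at or below 3 reads in at least 5 of the 9 libraries. Only Grin1 and Grik1 were tested between the genotypes, and 0 of the 2 were called by any tool. Neither had an unadjusted p under 0.05, which 5.76% of the 14835 genes tested had, and the calls over all genes were 0.115% in edgeR, 1.60% in DESeq2, 0.175% in limma voom and 0.297% in voom with quality weights. Grik1 had 223, 0, 619, 168 and 0 reads in knockout microglia and 390, 566, 623 and 149 reads in control microglia. Its reads were missing from 2 knockout libraries, and the means were 5.19 ± 6.25 CPM in knockout and 10.3 ± 5.04 CPM in control microglia (log2 change -0.99, SE 1.58, edgeR adjusted p = 0.999). Grin1 had 6, 375, 54, 3 and 197 reads in knockout microglia and 7, 24, 224 and 475 reads in control microglia, with a log2 change of -0.49 (SE 1.47; adjusted p = 0.999 in edgeR). The direction of Grin1 turned, to 0.69, without control replicate 4.

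The other subunits were scattered over the microglia libraries. Gria1 had 105, 2, 0, 0 and 0 reads in knockout microglia and 0, 6, 4 and 413 in control microglia. Gria2 had 1, 2, 0, 0 and 0 reads in knockout microglia and 3, 186, 132 and 0 in control microglia, a ratio of 0.00781 (95% counting interval 0.00160 to 0.0230) that rests on 2 control libraries. Gria4 had reads in 1 knockout library (25) and 2 control libraries (67 and 68). Grik5 had 197, 1, 1, 2 and 1 reads in knockout microglia and 6, 0, 32 and 130 in control microglia. Gria3 had 0 reads in all 9 libraries, which allows up to 0.0929 CPM in the shallowest of all libraries, and Grin2a, Grin2b and Grik2 had at most 6 reads in any.

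**Figure D5:**
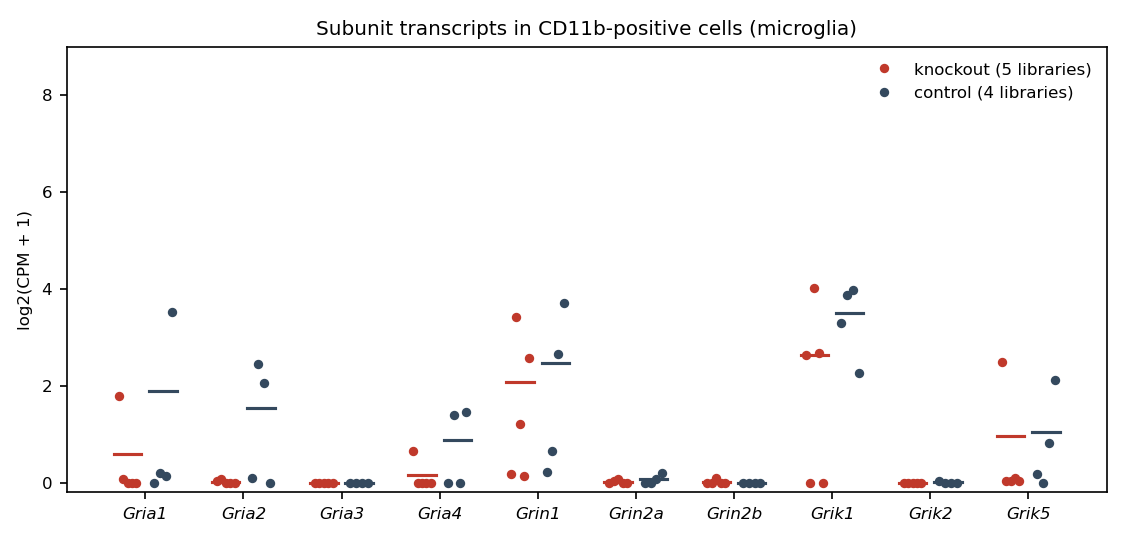
Level of each subunit in the 9 microglia libraries, in CPM on a log2 scale of CPM plus 1, with knockout libraries left of control libraries, each point a library and each line the value of the mean CPM. Grik1 and Grin1 reach 15.3 and 12.2 CPM, while Gria3 is at 0 in every library.

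Neuronal markers were also present in the microglia libraries. The rod markers there had 5.91% of their retina level in knockouts and 4.78% in controls, and the bipolar markers 7.92% and 25.7%, in the same order. The amacrine markers had 5.17% and 20.5%, the cone markers 5.99% and 13.7% and the horizontal cell markers 12.1% and 27.2%, also in that order. The ganglion cell markers were higher in microglia, at 233% of their retina level in knockouts and 253% in controls, with Rbpms at 32.7 CPM in knockout and 33.5 CPM in control microglia and Slc17a6 and Pou4f2 at 0 reads in both. Grik1 in microglia had 2.45% of its retina level in knockouts and 17% in controls. Grin1 had 9.56% in knockouts and 51.0% in controls. The summed rod markers were 5637 to 12489 CPM in knockout microglia and 7601 to 11061 CPM in control microglia, with none of the 12 at 0 in a group, and the summed bipolar markers 87.9 to 307 CPM and 131 to 234 CPM. The part of retinal RNA in the subunit reads of the microglia libraries was not tested.

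Between the control fractions, 6 subunits were tested and 1, Grik1, was higher in retina, where edgeR called 17.4% of the 15188 genes tested higher. All 6 changes were positive, against 49.3% of all genes. A gene passes the read filter through its higher group, and Gria2, Gria4 and Grik5 each had control microglia libraries at 3 reads or fewer. The signs therefore describe the tested subunits, and no conclusion is drawn from their count. Grik1 had 57.9 ± 32.2 CPM in control retina and 10.7 ± 5.28 CPM in control microglia (log2 change 2.43, SE 0.57, edgeR adjusted p = 0.0106). With the replicate number as a block, since both fractions may come from the same animals, its log2 change was 2.36 and the edgeR adjusted p was 0.0768. The labels do not state this pairing. In control replicate 1 Xist had 39.8 CPM in microglia and 0.0834 CPM in retina, so the block may join different animals. The log2 changes of the other 5 were 3.24 for Grik5, 3.08 for Gria4, 2.87 for Gria2, 1.32 for Gria1 and 0.87 for Grin1, with edgeR adjusted p-values from 0.128 to 0.672. These values depended on single libraries. Without control microglia replicate 4 the change was 6.33 for Gria1, 2.02 for Grin1 and 5.04 for Grik5, which then passed in edgeR, and over all libraries left out the lowest values were 0.67, 0.44 and 2.81 for these genes. Gria2, Gria4, Grik1, Grik5 and the untested Grin2b were higher in all 4 retina libraries than in any microglia library, as were 21.4% of tested genes. Grik5 passed in DESeq2 as well, and Gria2, Gria4 and Grik5 in limma voom, in fits that called 47.1% and 49.5% of all genes in either direction.

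The change of the retina with genotype was then set against that of the microglia in the interaction of all 18 libraries, which edgeR called for 0.469% of 18128 genes. It called 0 of the 8 subunits tested, and 1 of the 8, Gria2, had an unadjusted p under 0.05, against 12.5% of all genes, while limma voom, with 0.800% of genes called, called 0. For Gria2 the difference was 7.28 on the log2 scale (SE 1.81, edgeR adjusted p = 0.0957), with a DESeq2 adjusted p of 0.000702 in a fit that called 6.01% of genes. When a library was left out the edgeR adjusted p ran from 0.0327, without control microglia replicate 4, to 0.175. Gria2 has 3 reads in knockout microglia, so the size of this value depends on the prior count. For Grik1 the difference was 2.73 (SE 1.54, edgeR adjusted p = 0.51) and for Grin1 2.33 (SE 1.61, adjusted p = 0.638).

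The further subunits and partners of these receptors were also measured, and edgeR called 0 of them in either comparison of genotypes. Of the 49 tested in retina, DESeq2 called 9, all higher, limma voom 2 and voom with quality weights 0, beside 7.72%, 2.37% and 1.41% of all genes. In microglia 0 had an unadjusted p under 0.05, against 5.76% of all genes, and 0 were called by DESeq2 or limma voom. Of 8 other ionotropic subunit genes 5 were tested in retina, 4 with a positive change and 2 with an unadjusted p under 0.05. Among all genes tested in retina these shares were 50.2% and 14.2%. The 2 genes, Grik3 and Grin3a, passed the read filter through the knockout group alone, so their direction was fixed. The counts of positive changes here and in the lists below therefore describe the tested genes only. Grik3, which encodes GluK3, had 527, 3, 276, 215 and 18 reads in knockout retina and 0 in control retina, at least 299-fold higher over the group (edgeR adjusted p = 0.0876). Grin3a, which encodes the inhibitory NMDA subunit GluN3A, had 0, 734, 275, 545 and 501 reads in knockout retina and 0 in control retina, at least 590-fold higher (edgeR adjusted p = 0.0924). Both bounds use 3 reads over the control group as the floor and cover counting error only, not the spread between libraries. More than 3 reads of Grin3a were found in 4 of 5 knockout libraries.

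Among 15 auxiliary subunit genes, 12 were tested in retina, 7 with a positive change and 2 with an unadjusted p under 0.05, against 50.2% and 14.2% of all genes. Neto1, which encodes a kainate and NMDA receptor partner, had 490 reads in knockout retina and 0 in control retina. By the same floor it was at least 141-fold higher (edgeR adjusted p = 0.122), in 4 of 5 libraries, a bound for counting error only. Neto1 too passed the read filter through the knockout group alone, so its direction was fixed. Sorcs2, a sorting receptor, averaged 79.5 ± 33.3 CPM in knockout retina and 25.7 ± 19.95 CPM in control retina (log2 change 1.63, edgeR adjusted p = 0.22). Of 19 scaffold and trafficking genes 18 were tested, 14 with a positive change and 5 with an unadjusted p under 0.05, against the same 50.2% and 14.2%. Nptx2, the pentraxin that clusters AMPA receptors, averaged 28.3 ± 5.80 CPM in knockout retina and 6.74 ± 3.69 CPM in control retina (log2 change 2.07, edgeR adjusted p = 0.0557). Nsf, the ATPase that binds GluA2, averaged 1320 ± 105 CPM in knockout retina and 1015 ± 163 CPM in control retina (log2 change 0.38, edgeR adjusted p = 0.145).

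Of 8 metabotropic glutamate receptor genes 5 were tested, 3 with a positive change and 1 with an unadjusted p under 0.05, against 50.2% and 14.2% of all genes. Grm6, the gene of mGluR6 on ON bipolar cells and also a bipolar marker here, averaged 271 ± 83.8 CPM in knockout retina and 59.0 ± 32.7 CPM in control retina (log2 change 2.20, edgeR adjusted p = 0.0626). Grm5, the gene of mGluR5, averaged 33.6 ± 13.7 CPM in knockout retina and 8.53 ± 10.6 CPM in control retina (log2 change 1.98, edgeR adjusted p = 0.392). Of 7 glutamate transporter genes 6 were tested, 2 with a positive change and 1 with an unadjusted p under 0.05, against the same 50.2% and 14.2%. Slc1a7, the transporter EAAT5 of photoreceptors and bipolar cells, averaged 299.7 ± 64.4 CPM in knockout retina and 179.9 ± 34.7 CPM in control retina (log2 change 0.74, edgeR adjusted p = 0.104). Slc1a3, the glial transporter GLAST, averaged 289 ± 71.6 CPM in knockout retina and 185 ± 73.6 CPM in control retina (log2 change 0.64, edgeR adjusted p = 0.38).

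Of the 3 genes for RNA editing of subunits, all were tested and 2 had a positive change, against 50.2% of all genes. Adarb1, the enzyme ADAR2 that edits the GluA2 transcript, averaged 34.2 ± 8.17 CPM in knockout retina and 18.5 ± 7.34 CPM in control retina (log2 change 0.88, edgeR adjusted p = 0.205). Adarb2, its brain homologue, averaged 6.22 ± 3.17 CPM in knockout retina and 10.4 ± 3.77 CPM in control retina (log2 change -0.74, edgeR adjusted p = 0.611).

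Across the 9 retina libraries, the genes most like the mean log2 level of the tested subunits were Neurod4 (Pearson r 0.968), Irgq (0.967), Scg2 (0.964), Pik3c3 (0.961) and Clca1 (0.959), of 8215 genes ranked. These libraries share the genotype groups and the amplification, so the likeness is a description. Neurod4 encodes a neurogenic transcription factor and Scg2 the granule protein secretogranin II. Neurod4 averaged 202.5 CPM in knockout retina and 85.3 CPM in control retina, and Scg2 357 CPM and 153 CPM, in the same order, with edgeR adjusted p-values of 0.172 and 0.128.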

How the data were processed

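RNA from sorted cells of mouse retina was sequenced. Per the labels' protocols the SMARTer Ultra Low kit amplified little RNA per sample, so a count is not an independent molecule. The authors deposited raw counts per gene for 18 libraries, and STAR 2.7.9a, DRAGEN, Subread, featureCounts and GRCm38 are named, without a role, in the submitters' processing notes. For each genotype comparison the authors deposited their own results, namely log2 fold changes, log2 CPM, a likelihood ratio score and raw and adjusted p-values, per the file headers. Of 55774 table lines, 287 were repeats of an identifier with the same counts, which left 55487 genes, 55141 of them found in GENCODE M21, which gave positions and lengths. No line lacked a gene name, 0 sample columns were unused and 0 pairs of libraries were identical.

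Groups follow the labelled fraction and genotype. The main test was edgeR's quasi-likelihood F test (edgeR 4.0.16, R 4.3.3) on the counts after filterByExpr and TMM scaling, with Benjamini-Hochberg adjustment over all genes tested and calls at an adjusted p under 0.05. Fits held 9 libraries for a genotype comparison, 18 for the interaction and the 8 control libraries between fractions, so CPM of a gene differ slightly between fits. The standard error was computed from the log2 change and the F statistic. Counting intervals are at 95% and, like the floor of 3 reads, cover counting error only. The procedure was tested on simulated counts.

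The members and gene lists were chosen with earlier results of these data known. All 10 subunits are named, and from each companion list any called gene or otherwise up to 2 genes with the smallest p in retina. Likeness was ranked over genes of at least 10 CPM. Same-numbered libraries of the genotypes did not deviate together (correlations -0.0733 to 0.0444) and were not paired. Both fractions were isolated together per the design text, so a shared number may mark the same animal, which the labels do not state. The correlations between fractions were -0.0287 to 0.0582, and Xist had 0.0834 CPM in the retina library and 39.8 CPM in the microglia library of control replicate 1. In knockout replicate 1 Xist had 13.3 CPM in the retina library and 37.8 CPM in the microglia library, and all remaining libraries had at most 0.0492 CPM. Alternatives were DESeq2 1.42.0 and its size factors, limma 3.58.1 voom without and with quality weights, other filters, the replicate block, covariates, all 18 libraries, leaving out each library and, chosen after seeing the data, the longest coding transcript as length.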

Additional observations from a re-analysis of the deposited data

Results flagged for a closer look

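In groups of 4 or 5 libraries, a library far from the others by Dixon's test was found for 7 of 31 combinations of subunit and group tested. The test passes about 1 in 20 groups of normally distributed values, which these levels are not. Where all other libraries of a group were at 0, as for Gria4 in knockout microglia, its ratio is the highest possible at any level. The count of 7 is therefore a description. Of these, 4 were in microglia. Knockout microglia replicate 1 stood apart for Gria1 at 2.46 CPM, for Gria4 at 0.586 CPM and for Grik5 at 4.62 CPM, and control microglia replicate 4 for Gria1 at 10.6 CPM. In retina, Grin2a was at 1.99 CPM in knockout replicate 5, Grik2 at 8.74 CPM in knockout replicate 2 and Grin2b at 3.97 CPM in control replicate 3. In all 7 the library was the highest of its group.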

How the results depend on the processing

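In retina edgeR called 255 genes and 0 subunits. The genes called were 120 with no filter on low counts, 0 with the replicate block, 0 with the rod level and 2 with the count of detected genes as a covariate, 1184 with DESeq2, and 96 to 342 when a library was left out. The subunits called were 2 with DESeq2, 1 with limma voom and 0 to 1 when a library was left out. In microglia 17 genes were called, against 8 with no filter, 2 with the replicate block, 32 over all 18 libraries, 11 with the rod level, 5 with the detected genes, 237 with DESeq2, 26 with limma voom, 44 with quality weights and 4 to 21 when a library was left out. The interaction called 85 genes, against 9 with the replicate block, 1090 with DESeq2, 145 with limma voom and 51 to 143 when a library was left out, and 1 subunit with DESeq2 and 0 to 1 when a library was left out. Between the fractions 1 subunit was called, against 2 with no filter, 0 with the replicate block, 2 with DESeq2, 4 with limma voom and 1 to 2 when a library was left out. Signs turned in retina for Gria4 (-0.54 with the rod level, -0.37 with the detected genes), Grin2b (2.30 and 2.08 with these, -2.01 to 1.51 when a library was left out) and Grik5 (-0.43 with the rod level). In microglia Grin1 was at 0.81 with the rod level and -1.49 to 0.69 when a library was left out. In the interaction Gria1 ran from -0.66 to 9.35 and Grik5 from -0.99 to 5.51 when a library was left out. The causes were not tested. In retina the count of detected genes did not overlap between the genotypes, and all 12 rod markers were lower in knockouts. The fits with these covariates therefore cannot separate covariate from genotype, and in microglia this held for the detected genes. The same-numbered libraries of the genotypes share only a number, and the replicate block there left 0 subunits called. At this depth 3 reads limit levels to about 0.0631 to 0.0929 CPM.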

Other observations

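Among the metabotropic receptors, Grm2, chosen after its values were seen, had 3 reads over the knockout retina libraries and 1213 over the control retina libraries. In control retina it ranged from 0 to 23.3 CPM with a median of 1.06 CPM, so that single libraries carried it. Grm4, chosen in the same way, had 333 reads in knockout retina, with a median of 0 and a highest library of 7.02 CPM, and 4 reads in control retina. Neither gene passed the read filter of the retina comparison.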
